A study of Mus musculus with 27 samples.

Results

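The enzymes that attach glutathione, glucuronic acid or sulfate to foreign and endogenous chemicals, together with the carboxylesterases that cut ester bonds in drugs and lipids, were followed across the mouse colon and jejunum as 56 genes. The genes were taken by symbol: Gst genes of the alpha, mu, pi, theta, kappa, omega and zeta classes, Ugt1a, Ugt2a and Ugt2b genes, Sult genes and Ces genes. Of the 23420 symbols counted, 75 matched, and 56 of these had at least 10 counts summed over the 27 libraries: 21 Gst, 14 Ugt, 8 Sult and 13 Ces genes. The other 19 matching symbols fell below 10 counts and are not described further. C57BL/6 mice, an inbred laboratory strain, drank water (control) or 15% ethanol for 8 weeks. Libraries came from colon and jejunum (the stretch of small intestine after the duodenum), taken as whole tissue or grown as organoids, which are epithelial cultures raised from crypts. There were 2 control and 2 ethanol colon organoid libraries, 4 and 4 of jejunum organoids, 4 and 4 of colon tissue, and 3 control and 4 ethanol libraries of jejunum tissue. Age, sex, passage number and any ethanol in the culture medium are not given in the sources used here, so that ethanol exposure below means the drinking of the mice. The labels number the donors within each group but do not say that each library came from a separate mouse, so the p-values measure only the spread between these libraries. The series asked how alcohol feeding changes the intestinal epithelium in the animal and in organoids.

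Glutathione S-transferases (Gst) join glutathione to reactive electrophiles, among them lipid peroxidation products. UDP-glucuronosyltransferases (Ugt) add glucuronic acid to bilirubin, steroids, bile acids and phenols, and cytosolic sulfotransferases (Sult) add sulfate to phenols, catecholamines and sterols. Carboxylesterases (Ces) hydrolyse ester drugs and also neutral lipids, and the intestinal epithelium is a site where all 4 families act on swallowed compounds before they reach the liver. Ethanol itself yields small amounts of ethyl glucuronide, ethyl sulfate and fatty acid ethyl esters through enzymes of these kinds.

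RNA was read as 1 tag near the 3' end of each transcript, so that counts were compared between genes without a length correction. Levels are given as counts per 1000000 reads outside Rn45s (CPM), because this ribosomal RNA gene took 18.27% to 84.33% of the counts of a library, most in jejunum tissue; 684906 to 7606668 counts per library remained. Markers of the small intestine separated the segments: summed over 10 genes of small intestinal enterocytes, control jejunum tissue had 25071 to 29921 CPM and control colon tissue 414.5 to 1362.5 CPM. Colonocyte markers separated them less well. Their sum over 8 genes was 1048 and 2621.5 CPM in control colon organoids and 853 to 1254 CPM in control jejunum organoids, so the groups overlapped; Car1, Car4 and Aqp8 were higher in colon there and Mettl7b lower (edgeR). Car1 was at 912 to 10118 CPM in colon organoids and at most 1.32 CPM in jejunum organoids, but control jejunum tissue library 2 had 518 CPM, above the 486 CPM of ethanol colon tissue library 2. Control colon organoids were the shallowest in genes, with 9951 and 11780 genes detected, and their 2 libraries had a rank correlation of 0.57 across genes, against 0.85 for the 2 ethanol colon organoid libraries. In colon tissue, control library 1 and ethanol libraries 1 and 2 stood apart from the other 5: Hoxb13, a gene of the hindmost gut, was at 182.5, 182.0 and 800.5 CPM in them and at most 0.274 CPM in the others. Counts of members that passed in colon tissue are therefore given with and without these 3 libraries. A lower level in these bulk samples can come from fewer cells of a type or from less RNA per cell, which cannot be told apart. The Ugt1a genes share 3' exons, so that tags there cannot be assigned to 1 of them with certainty; the longest transcript of Ugt1a7c ends elsewhere, with 0% of its last 500 bases overlapping another gene, although other Ugt1a7c exons lie in the shared end. Gstp1 and Gstp2 shared 75.2% of the 50-base words in the last 500 bases of their transcripts, so that their split is uncertain too. The same share was 31.3% for Ces3a and Ces3b, 27.7% for Gsta1 and Gsta2 and 25.1% for Ces1b and Ces1c, and 11.2% of the last 500 bases of Sult1a1 overlapped Sgf29 on the other strand.

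The glutathione S-transferases were the most abundant family in organoids. Their summed level was 6462 ± 1580 CPM (SD, n = 4) in control jejunum organoids and 2489 ± 88.6 CPM (SD, n = 2) in control colon organoids, against 824 ± 299 CPM (SD, n = 3) in control jejunum tissue and 1487 ± 211 CPM (SD, n = 4) in control colon tissue. The jejunum organoid libraries spanned 4594 to 8284 CPM in controls and 6413 to 10093 CPM after ethanol, so the groups overlapped. Gsta1, an alpha-class enzyme that also reduces lipid hydroperoxides, led in jejunum organoids with 3283, 1786, 2237 and 3621 CPM in controls and 4028, 4238, 4209 and 2333 CPM after ethanol. It made up 42.3% of the family there. In control jejunum tissue Gsta1 was at 129.9, 150.4 and 25.8 CPM. Gsto1, the omega-class enzyme that reduces dehydroascorbate and arsenic compounds, led in control colon organoids with 30.9% of the family and also in both tissues, with 24.5% of the family in control colon tissue and 24.6% in control jejunum tissue.

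UDP-glucuronosyltransferase counts came mainly from 1 gene. Ugt2b34, of the subfamily that conjugates steroids and phenols, supplied between 69.25% and 95.4% of the family's sum in the 8 groups. Its mean was lowest in control colon organoids, at 102 and 254 CPM, and the 3 control jejunum tissue libraries had 1386, 867 and 1099 CPM. The family sum was 1159 ± 107 CPM (SD, n = 4) in control jejunum organoids and 1172 ± 246.5 CPM (SD, n = 3) in control jejunum tissue, which differed by less than their spread. Of the Ugt1a genes, which include the bilirubin enzyme Ugt1a1, none reached 50 CPM in any group mean.

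The sulfotransferases were the only family whose summed level was lower in jejunum organoids, at 551 ± 89.8 CPM (SD, n = 4) in controls, than in both control tissues, at 1430 ± 499.9 CPM (SD, n = 4) in colon and 1287 ± 308.5 CPM (SD, n = 3) in jejunum. Sult1d1, which sulfates catecholamines and phenols, led in colon tissue and in all organoid groups, and Sult1b1, which acts on thyroid hormones and phenols, led in jejunum tissue with 745, 800.1 and 650.3 CPM in the control libraries.

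Carboxylesterase sums were 2803 ± 400.1 CPM (SD, n = 4) in control jejunum organoids, 2194 ± 146 CPM (SD, n = 3) in control jejunum tissue, 1853 ± 995 CPM (SD, n = 4) in control colon tissue and 152 ± 94.6 CPM (SD, n = 2) in control colon organoids. Ces2e, one of the intestinal Ces2 enzymes, led the jejunum samples, with 67.6% of the family in control tissue. Ces2c, a Ces2 enzyme that also hydrolyses acylglycerols, led in colon tissue with 36.0%.

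**Figure D1:**
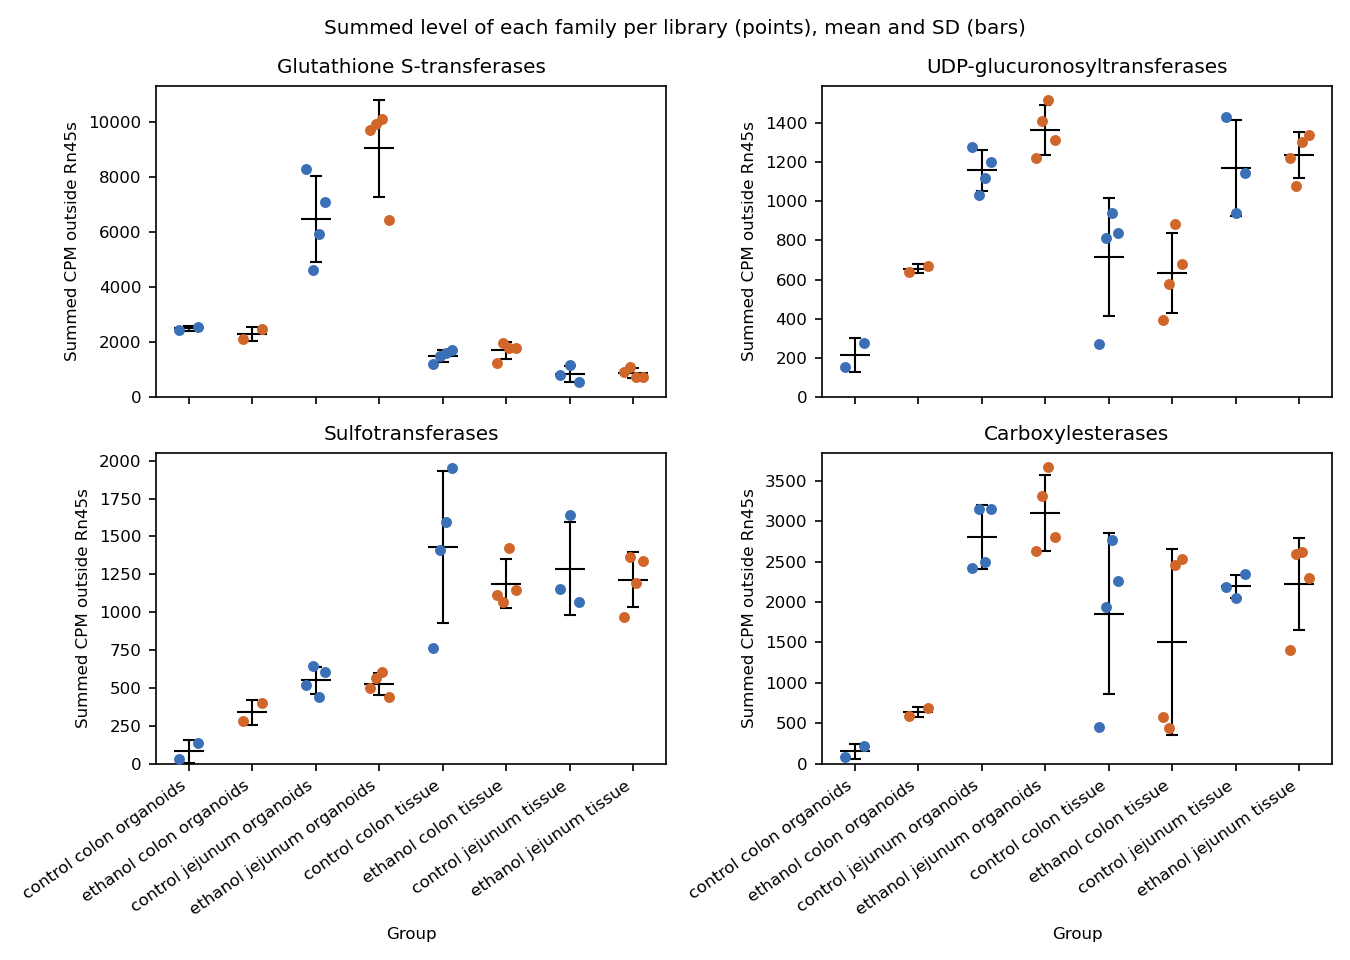
Summed CPM outside Rn45s (y axis, linear, from 0) of the members of each family in each library (points, blue for control and orange for ethanol), with the mean and SD of each group (bars), for the 8 groups on the x axis. The Gst sums of jejunum organoids lie between 4594 and 10093 CPM, above every other library, and the Ces sums of colon tissue run from 434 to 2762 CPM.

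**Figure D2:**
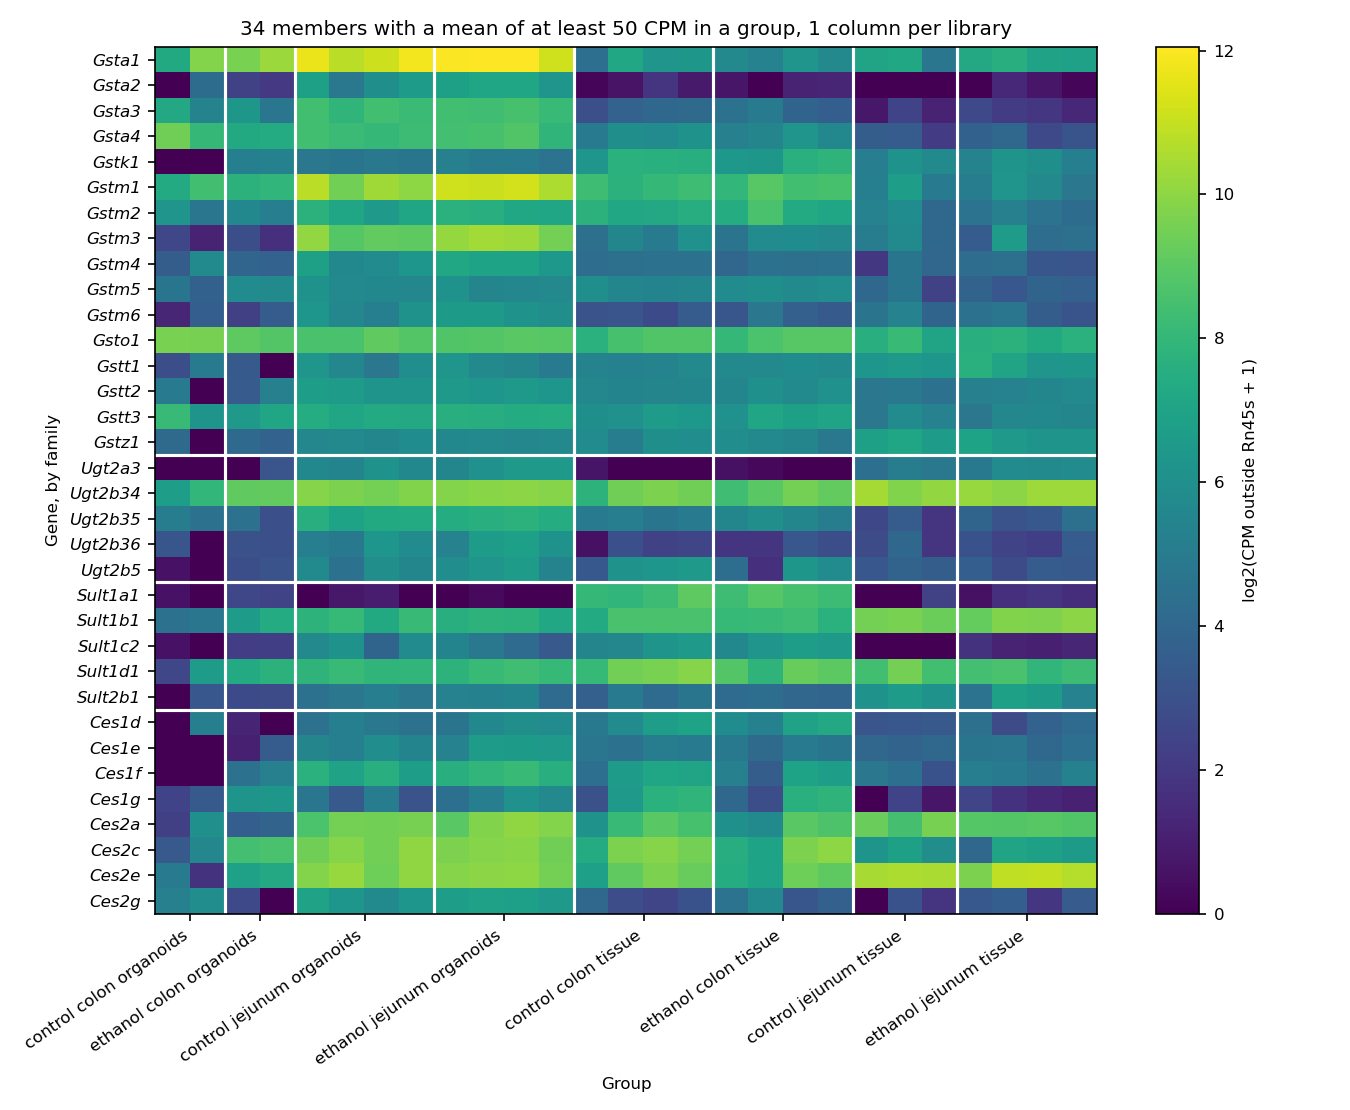
Levels of the 34 members whose mean reached 50 CPM in at least 1 group (y axis, grouped by family), as log2(CPM outside Rn45s + 1) in colour, with 1 column per library in the 8 groups of the x axis. Control colon organoids are dark for most Ces and Ugt genes, Sult1a1 is bright only in colon tissue, and Ugt2a3 is bright only in jejunum samples.

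Colon and jejunum tissue held different sets of these enzymes. In control tissue 22 of the 41 members tested differed between the segments at an adjusted p under 0.05 (edgeR quasi-likelihood test, Benjamini-Hochberg over 13405 genes). Of these, 14 were higher in colon and 8 higher in jejunum. Of all genes tested 42.3% passed, 23.8% higher in colon and 18.5% higher in jejunum. The median log2 fold change of the members, colon minus jejunum, was 0.98, against 0.28 for all genes, and 1.09 with members at or under 3 counts in a group set to their bound. Without TMM scaling the median of all genes moved to 0.76, and 20 members were higher and 8 lower. Without the 3 Hoxb13-high libraries, an alternative chosen after seeing the data, 27 of 39 members passed, 18 higher and 9 lower. The share of all genes in that fit is not given here, so the rise is not read as particular to the members.

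Sult1a1, which sulfates small phenols, and Sult1c2, of a subfamily with aromatic substrates, were present in colon tissue and nearly absent from jejunum tissue. Sult1a1 was at 261, 239.5, 310.5 and 525.8 CPM in control colon tissue and at 0, 0 and 3.97 CPM in control jejunum tissue. All 4 colon libraries lay above all 3 jejunum libraries, and the log2 fold change was 7.15 ± 0.62 (SE; edgeR, adjusted p = 8.8e-08). Sult1c2 was at 43.5, 46.6, 74.9 and 91.5 CPM in colon and had no count in jejunum, so it was at least 76.4-fold higher in colon (jejunum set to the floor of 3 counts in all). Ugt2a3, which glucuronidates bile acids, ran the other way: 0.63, 0, 0 and 0 CPM in control colon tissue against 20.3, 32.1 and 27.1 CPM in jejunum, a log2 fold change of -7.26 ± 0.64 (SE; edgeR, adjusted p = 7.35e-08). Sult4a1, a member with no well-defined substrate, was higher in colon as well, at 4.24 to 12.6 CPM, with 1 count in control jejunum tissue (ratio of pooled CPM 32.3, 95% exact counting interval 5.72 to 1284).

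Within the carboxylesterases, neighbouring genes of 1 cluster on chromosome 8 differed in direction. Ces2c was at 169.6, 814, 936 and 749 CPM in control colon tissue and at 75.5, 112 and 60.9 CPM in jejunum, with no overlap and a log2 fold change of 2.62 ± 0.92 (SE; edgeR, adjusted p = 0.037). Leaving out any 1 of colon libraries 2, 3 and 4 or of the 3 jejunum libraries ended it, as did donor number as a block, and its adjusted p ran from 0.00047 to 0.10 over the alternatives. Ces2e was at 109, 556, 827 and 605 CPM in colon and at 1441, 1523 and 1482 CPM in jejunum, again with no overlap, and its log2 fold change was -1.93 ± 0.64 (SE; edgeR, adjusted p = 0.026). Without jejunum library 1 or 3 the adjusted p was 0.057 or 0.061, and without the 3 Hoxb13-high libraries 0.00042. Ces1g and Ces1d, carboxylesterases of the Ces1 cluster that act on lipids, were higher in colon, with log2 fold changes of 6.38 ± 2.04 and 2.71 ± 0.70 (SE; edgeR, adjusted p = 0.025 and 0.0063). The Ces1g call ended without jejunum library 1 or 3 (adjusted p = 0.088 and 0.084) and with the block.

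The sequences upstream of Ces2c, Ces2e and Ugt2a3 are shown because these genes carry the contrast between the segments: neighbours with opposite directions, and a member with 4 counts in all of control colon tissue. Each is the 250 bases before the start of the gene, 5' to 3' on the gene's strand, from RefSeq (GRCm38.p6); capitals mark a match to TTTATNG, a core of the sites of the caudal factors Cdx1 and Cdx2, and none of the motifs searched matched upstream of Ces2c or Ces2e.
Ces2c, chr8:104846818-104847067, plus strand: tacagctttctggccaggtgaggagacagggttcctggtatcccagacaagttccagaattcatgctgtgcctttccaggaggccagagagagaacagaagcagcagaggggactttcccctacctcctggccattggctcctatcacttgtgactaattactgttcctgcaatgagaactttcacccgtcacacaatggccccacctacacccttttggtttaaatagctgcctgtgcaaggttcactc
Ces2e, chr8:104926010-104926259, plus strand: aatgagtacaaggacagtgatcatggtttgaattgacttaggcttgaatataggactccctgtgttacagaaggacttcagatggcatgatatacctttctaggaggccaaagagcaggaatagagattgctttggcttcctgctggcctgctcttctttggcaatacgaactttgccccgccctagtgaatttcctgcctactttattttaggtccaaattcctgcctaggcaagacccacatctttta
Ugt2a3, chr5:87337196-87337445, minus strand: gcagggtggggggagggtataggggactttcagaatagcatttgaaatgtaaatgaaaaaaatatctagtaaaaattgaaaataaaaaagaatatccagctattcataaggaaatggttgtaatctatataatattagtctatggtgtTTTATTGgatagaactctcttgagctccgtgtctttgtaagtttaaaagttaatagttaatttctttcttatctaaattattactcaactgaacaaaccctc
Of the 56 members, 48 had such a window in the table, some with several annotated starts, and a gene was counted where the window of any of its starts held the motif on either strand. TTTATNG was found for 4 of the 48 genes (8.33%: Ces1g, Gsta2, Gstm6 and Ugt2a3) and for 11.3% of 27025 genes. The core of the antioxidant response element, TGACNNNGC, was found for 6.25% of the members and 11.5% of all genes, and that of the xenobiotic response element, GCGTG, for 16.7% and 30.9%. The HNF4 core CAAAGTCCA was found for none of the members and 0.451% of all genes. The HNF1 core (GTTAAT, any base, then ATT) was found for 3 of 48 (6.25%: Ces5a, Sult1d1 and Ugt1a1) and for 0.44% of all genes. Of these, Ces5a reached the minimum count of a member only through its counts in ethanol colon organoids. Such matches describe the letters of the window only.

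Among the glutathione S-transferases 7 of 19 tested members were higher in control colon tissue and 3 were higher in jejunum tissue. The mu-class enzymes Gstm1 and Gstm2, which conjugate aromatic epoxides and aldehydes, were higher in colon. Gstm1 was at 315, 213, 263 and 319.7 CPM in colon and at 35.6, 103.7 and 31.1 CPM in jejunum, without overlap, with a log2 fold change of 1.91 ± 0.39 (SE; edgeR, adjusted p = 0.00096). Gsta3 and Gsta4, alpha-class enzymes of which Gsta4 handles the lipid aldehyde hydroxynonenal, were higher in colon too, by 2.39 ± 0.67 and 2.36 ± 0.50 on the log2 scale (SE; edgeR, adjusted p = 0.0080 and 0.0011). The Gsta3 call ended without jejunum library 1 (its adjusted p was at most 0.064 over the alternatives). Gstk1, the kappa-class enzyme of mitochondria and peroxisomes, was at 80.0, 208, 200 and 190.2 CPM in colon and at 34.8, 70.1 and 52.3 CPM in jejunum; its adjusted p of 0.036 rose above 0.05 when any 1 of 6 of these 7 libraries was left out (up to 0.14 over the alternatives), the exception being colon library 1, and also with donor number as a block. Gstm6, Gstt1 and Gstz1, the last an isomerase of tyrosine breakdown, were higher in jejunum, with log2 fold changes of -2.11 ± 0.48, -1.42 ± 0.26 and -1.63 ± 0.25 (SE; edgeR, adjusted p = 0.0020, 0.00035 and 5.9e-05). Sult2b1, which sulfates cholesterol, and Sult1b1 were also higher in jejunum, by -2.36 ± 0.45 and -1.58 ± 0.30 on the log2 scale, colon minus jejunum (SE; edgeR, adjusted p = 0.00055 and 0.00050).

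Whole tissue contains more than epithelium, and markers of several cell types moved with the segment. The 8 smooth muscle markers summed to 3568 to 14614 CPM in control colon tissue and 554.5 to 2161 CPM in control jejunum tissue, 4 of the 8 were higher in colon, and none was at 0 in either group. Of 7 fibroblast markers 4 were higher and 0 lower in colon, and of 7 markers of enteric neurons and glia 4 were higher and 1 lower. Of 8 epithelial markers Krt8 and Krt19 were higher and Epcam, Cdh1, Vil1 and Cldn7 lower. The part of these lists in the differences of the members was not tested. In ethanol tissue 22 of 41 members again differed, 14 higher and 8 lower in colon. Of all genes 48.4% passed, 25.5% higher and 22.9% lower. Of the 22 members, 20 were called in the same direction in control tissue (90.9% of each list). Sult1a1 was at 318, 468, 376 and 302 CPM in ethanol colon tissue and at 0.476, 2.12, 2.59 and 1.97 CPM in ethanol jejunum tissue, with a log2 fold change of 6.96 ± 0.48 (SE; edgeR, adjusted p = 3.13e-09). Sult1c2 was at 48.0, 77.1, 107.5 and 91.6 CPM against 2.38, 1.33, 1.08 and 1.45 CPM. Without the 3 Hoxb13-high libraries 27 of 39 members differed in ethanol tissue, 19 higher and 8 lower.

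In organoids the segments differed mostly in 1 direction. Between control colon and control jejunum organoids 33 of 46 members passed (edgeR), 32 of them lower in colon and 1 higher, and 49.5% of all genes passed, 26.8% lower and 22.6% higher. The median log2 fold change of the members was -2.83 (-2.60 with members at or under the floor at their bound), against -0.15 for all genes. The lower members included 14 of 19 Gst, 7 of 10 Ugt, 4 of 5 Sult and 7 of 12 Ces genes tested. Of the 56 members, 21 had no count in the 2 control colon organoid libraries. These libraries also detected the fewest genes, 9951 and 11780 of 23420 symbols. The share of all genes without a count in both is not given here, and the part of depth was not tested. With donor number as a block 15 members passed, all lower, and with a spread estimated for each group (limma-voom) 4 passed, all lower.

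Gstm3, a mu-class enzyme, was at 4.91 and 1.22 CPM in control colon organoids and at 1083, 471, 572 and 529 CPM in control jejunum organoids, far apart in every library, with a log2 fold change of -7.80 ± 0.66 (SE; edgeR, adjusted p = 5.4e-06). In tissue its groups overlapped, at 20.6 to 67.8 CPM in control colon and 15.2 to 52.6 CPM in control jejunum (log2 fold change -0.06 ± 0.71, SE; edgeR, adjusted p = 0.95). Ces1f, a Ces1 enzyme, had no count in control colon organoids and was at 207, 121, 191 and 106.5 CPM in jejunum organoids, so it was at least 149-fold lower in colon. Ces2e was at 30.4 and 2.44 CPM against 897, 1172, 678 and 1057 CPM, and Ces2c at 9.33 and 46.4 CPM against 692, 922.5, 713 and 1062 CPM. Their log2 fold changes were -5.94 ± 0.62 and -5.48 ± 0.50 (SE; edgeR, adjusted p = 2.1e-05 and 8.9e-06). With a spread per group the Ces2c call held (adjusted p = 0.021), and those of Gstm3, Ces1f, Ces2e and Ugt2a3 did not. Ugt2a3 had no count in control colon organoids and 48.3, 41.6, 69.7 and 47.6 CPM in jejunum organoids, at least 49.3-fold lower in colon, the direction it had in tissue. The 1 member higher in colon was Ugt1a5, at 8.35 and 0 CPM, which overlapped the jejunum range of 0 to 0.459 CPM; its call ended without colon library 1 or any 1 of the 4 jejunum libraries (adjusted p up to 0.61 over the alternatives).

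After ethanol 33 of 46 members again differed between colon and jejunum organoids, 5 higher and 28 lower in colon. The 5 were Ugt1a5, Ugt1a6b, Ugt1a7c, Sult1a1 and Ces5a. Among them Ugt1a6b, Sult1a1 and Ces5a passed the expression filter of the organoids only through the ethanol colon libraries, where they are high. Their levels there were 3.52 and 11.9, 4.92 and 4.46, and 5.98 and 5.95 CPM. These calls are therefore not read as results. Of all genes 45.8% passed, 25.1% higher and 20.6% lower. With donor number as a block 10 members passed, all lower. Of the 33, 26 had been called in the same direction in control organoids (78.8% of each list), and Ugt1a7c was called in opposite directions, its ethanol call ending with the block. Gstm3 was at 6.33 and 2.23 CPM in ethanol colon organoids and at 1127, 1322, 1228 and 740.0 CPM in ethanol jejunum organoids (log2 fold change -7.93 ± 0.63, SE; edgeR, adjusted p = 4.6e-06). Ces2c was nearer, at 346 and 381 CPM against 817, 918, 968 and 688 CPM, without overlap (log2 fold change -1.32 ± 0.38, SE; edgeR, adjusted p = 0.014), and its call ended without either colon library or with the block (adjusted p up to 0.095 over the alternatives).

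**Figure D3:**
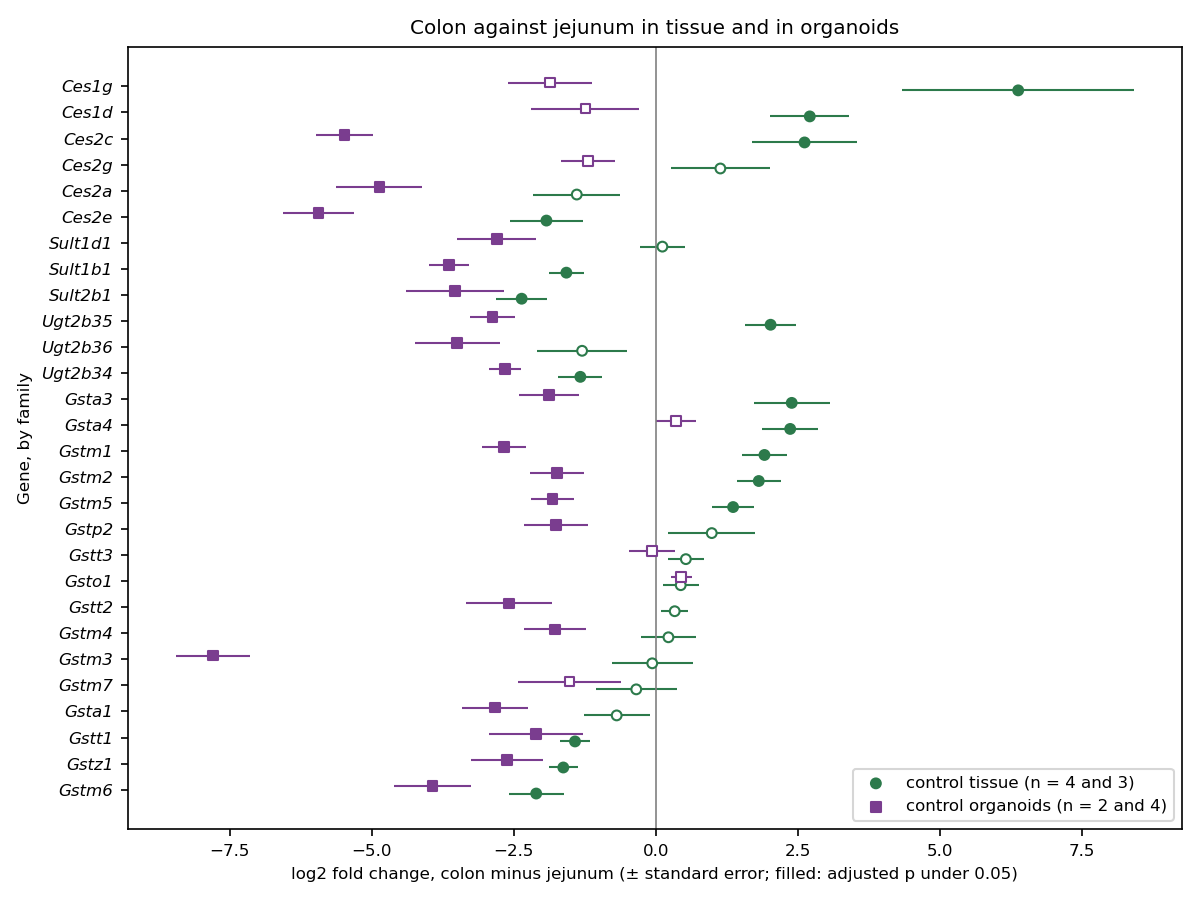
Log2 fold change of colon minus jejunum (x axis) with its standard error (bars) for the 28 members with more than 3 counts in all 4 control groups (y axis, by family), in control tissue (circles) and control organoids (squares), filled where the adjusted p was under 0.05. Tissue and organoids were fitted separately; in these fits all squares but that of Gsto1 lie left of the circle of the same gene, and Ces2c, Gsta3, Gstm1, Gstm2, Gstm5 and Ugt2b35 have filled symbols on both sides of 0.

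The segment difference itself differed between organoids and tissue. Of 50 members tested over all 27 libraries, 30 had a colon minus jejunum difference that was lower in control organoids than in control tissue and 0 had a higher one (edgeR), while 25.9% of all genes passed in the lower direction and 40.6% in either. At an unadjusted p under 0.05 (edgeR), 36 of the 50 passed, against 7204 of 15034 genes. DESeq2 called 29, all lower, and limma-voom with a spread per group called 6, all lower. In this fit, among the 28 members with more than 3 counts in each of the 4 control groups, all 28 differences were negative, from -8.35 to -0.10, with a median of -2.69, and the median over all genes was -0.60. Without the 3 Hoxb13-high libraries 33 of 48 members passed, all lower. The tests of tissue and of organoids use the same libraries as this comparison and are not separate evidence. Between control tissue and control organoids, which have no library in common, 8 members were called in the same direction (36.4% of the tissue list and 24.2% of the organoid list). Another 8 were called in opposite directions, higher in colon tissue and lower in colon organoids: Ces2c, Gsta3, Gstk1, Gstm1, Gstm2, Gstm5, Sult1c2 and Ugt2b35. The same overlaps over all genes are not given here. Ces2c had a difference of -8.18 ± 1.29, Ugt2b35 of -5.04 ± 0.61 and Gstm1 of -4.70 ± 0.60 on the log2 scale (SE; edgeR, adjusted p = 3.4e-05, 4.3e-07 and 8.7e-07). Ugt2b34, lower in colon in both, had the smaller difference of -1.44 ± 0.51.

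Organoids also differed from tissue of the same segment. In the jejunum 28 of 50 members differed between control organoids and control tissue (edgeR), 24 higher and 4 lower in organoids. Of all genes 51.8% passed, 24.4% higher and 27.3% lower. With DESeq2 size factors in edgeR the split was 23 higher and 8 lower. The median of the members was 1.80 (1.48 with members at or under the floor at their bound), against 0.00 for all genes. The higher members included 14 of 20 Gst and 6 of 13 Ces genes. Gsta3 was at 340.4, 238, 336 and 296.5 CPM in jejunum organoids and at 0.726, 4.38 and 1.32 CPM in jejunum tissue, with a log2 fold change of 7.20 ± 0.66 (SE; edgeR, adjusted p = 2.1e-09). Gsta2 was at 114, 27.2, 62.6 and 97.1 CPM in organoids and had no count in the 3 tissue libraries, at least 89.6-fold higher. Gstm1 was at 1786.5, 726, 1289.5 and 1028 CPM in organoids against the tissue values given above, a log2 fold change of 4.29 ± 0.43 (SE; edgeR, adjusted p = 6.8e-09). The 4 lower members were Sult1b1, Sult2b1, Gstz1 and Gstk1, with log2 fold changes from -1.88 ± 0.27 to -1.21 ± 0.38 (SE; edgeR, adjusted p = 2.4e-06 to 0.0097). Markers of other cell types moved with this comparison: all 8 smooth muscle, all 7 fibroblast and all 6 endothelial markers were lower in organoids. Enterocyte markers were lower for 8 of 10 genes, at 4281 to 9517 CPM in sum against 25071 to 29921 CPM in tissue, and of 8 epithelial markers 3 were higher and 5 lower. Their part in the members' differences was not tested.

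In the colon the direction was mostly the opposite. Of the 50 members 31 differed between control organoids and control tissue (edgeR), 7 higher and 24 lower in organoids, and 45% of all genes passed, 16.3% higher and 28.7% lower. The higher members were Gsta1, Gsta3, Gsta4, Gsto1, Gstp1, Gstt3 and Ces2g, and the lower ones included all 6 tested Sult genes and 8 of 13 Ces genes. Gsta4 was at 687 and 260.3 CPM in organoids and at 29.4, 63.9, 55.7 and 71.3 CPM in tissue, a log2 fold change of 2.91 ± 0.39 (SE; edgeR, adjusted p = 2.0e-06). Gstk1 had no count in organoids and was at least 161-fold lower than in tissue. Sult1a1 had 1 count in organoids, a ratio of 0.00104 to tissue (95% exact counting interval 2.63e-05 to 0.00579). Without control colon organoid library 1, 20 of 52 members passed, and 19 of 39 with the groups compared alone. Without the 3 Hoxb13-high libraries 31 of 48 passed, and with a spread per group 2 of 50 did, 1 in each direction. The 8 smooth muscle markers were at 0.98 to 12.2 CPM in these organoids, with Actg2, Tagln, Lmod1 and Synpo2 at 0, and the colonocyte markers summed to 1048 and 2621.5 CPM against 3987 to 35292 CPM in control colon tissue, with Slc37a2 at 0 in the organoids. Their part in the result was not tested.

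Ethanol was followed by differences in colon organoids and by none that passed in the other 3 settings. In colon organoids 17 of 46 members passed (edgeR), 15 higher and 2 lower after ethanol, and 17% of all genes passed, 12.3% higher and 4.77% lower. The median log2 fold change of the members was 1.24 (1.21 with members at or under the floor at their bound), against 0.14 for all genes. The 15 were 5 Ugt (Ugt1a1, Ugt1a6b, Ugt1a7c, Ugt2b34, Ugt2b5), 5 Ces (Ces1e, Ces1f, Ces1g, Ces2c, Ces2e), 3 Gst (Gstk1, Gstm5, Gstp2) and 2 Sult genes (Sult1b1, Sult1d1), and the 2 lower ones were Gsta4 and Ces2g. Ugt1a6b passed the expression filter only through its counts in the ethanol colon organoids, so its call is not read as a result. These calls rest on 2 libraries against 2 and on a spread shared with the jejunum organoids: 0 of 46 members passed with a spread per group (limma-voom) and 0 of 33 with the 4 colon libraries alone, where 0% of all genes passed as well. For all 17 the control and ethanol libraries did not overlap, which is no separate support, because the calls came from the same libraries. Over all genes tested, called or not, 40.7% had no overlap. Hoxb13 was at 0 and 37.9 CPM in the control libraries and at 0 in both ethanol libraries. Hoxd13, another Hox gene, was at 0 in both controls and at 0 and 5.20 CPM after ethanol. The part of position along the colon in these calls was not tested.

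Gstk1 had no count in control library 1 or 2 and was at 36.2 and 37.9 CPM in the ethanol libraries, at least 35.3-fold higher. Ces1f likewise had no count in controls and 22.5 and 37.2 CPM after ethanol, at least 28.4-fold higher, and Ugt1a7c had none and 29.9 and 23.8 CPM, at least 25.5-fold higher. The control libraries held 818240 and 2036195 counts outside Rn45s, so a gene without a count in either was below 3 counts in the pair. Ces2c was at 9.33 and 46.4 CPM in controls and 346 and 381 CPM after ethanol, without overlap, a log2 fold change of 4.15 ± 0.50 (SE; edgeR, adjusted p = 0.00046). Sult1b1 was at 21.6 and 25.7 CPM against 100.2 and 167 CPM, a log2 fold change of 2.75 ± 0.36 (SE; edgeR, adjusted p = 0.00084). Ugt2b34 was at 102 and 254 CPM against 547 and 570.2 CPM, and its log2 fold change was 1.96 ± 0.29 (SE; edgeR, adjusted p = 0.0015). Ces1g and Ces2e were higher by 3.83 ± 0.81 and 3.01 ± 0.58 on the log2 scale (SE; edgeR, adjusted p = 0.0088 and 0.0060), and their groups did not overlap either. Several weaker calls hung on single libraries. Without ethanol library 1 those of Sult1d1, Ugt1a6b and Gsta4 ended, and without ethanol library 2 those of Ces1e, Gstp2 and Ugt2b5 as well. Without control library 1 or 2 those of Ces1e, Ugt1a6b and Ugt2b5 ended.

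Ces2g and Gsta4 went down. Ces2g was at 36.8 and 59.9 CPM in controls and at 5.28 and 0 CPM after ethanol, without overlap, and fell by 3.55 ± 0.67 on the log2 scale (SE; edgeR, adjusted p = 0.0053). Gsta4 was at 687 and 260.3 CPM against 159 and 169 CPM and fell by 1.33 ± 0.42 on the log2 scale (SE; edgeR, adjusted p = 0.047), a call that ended without control library 1 or without either ethanol library. Of the other members close to these, Gsta1 was at 157 and 899.5 CPM in controls and 800.0 and 1187 CPM after ethanol, so the groups overlapped.

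Ugt1a1 carries in its upstream window 1 of the 3 matches to the HNF1 core among the members, shown here in capitals as found on the other strand in the 250 bases before its start (RefSeq, GRCm38.p6).
Ugt1a1, chr1:88211709-88211958, plus strand: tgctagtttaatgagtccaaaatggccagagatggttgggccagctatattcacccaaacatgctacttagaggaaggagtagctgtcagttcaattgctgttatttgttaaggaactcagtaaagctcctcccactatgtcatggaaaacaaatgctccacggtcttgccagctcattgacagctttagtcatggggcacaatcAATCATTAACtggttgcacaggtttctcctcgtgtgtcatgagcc
Ugt1a1 had no count in control colon organoids and was at 4.92 and 3.72 CPM after ethanol, at least 4.11-fold higher, with the shared Ugt1a 3' end as a limit. Ces5a and Sult1d1 hold the other 2 matches. Ces5a, an esterase secreted in some tissues, was at 0 and 0 CPM in controls and 5.98 and 5.95 CPM in ethanol colon organoids (edgeR, adjusted p = 0.11). Of its 32 counts over all libraries, 25 came from ethanol colon organoids and 7 from ethanol jejunum tissue. Without the ethanol colon organoids it would have missed the minimum count of a member, so its difference in this comparison is not read as a result. Sult1d1 was at 4.91 and 100.2 CPM in controls against 164 and 216 CPM after ethanol.

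Markers of cell types moved with the ethanol colon organoids. The 8 colonocyte markers summed to 1048 and 2621.5 CPM in controls and 8598 and 12764 CPM after ethanol; Car1, Lypd8 and Mettl7b passed among the 8, and Slc37a2 was at 0 in controls. Of 9 leukocyte markers 5 were tested and Csf1r and Itgam passed, the sums being 18.3 and 90.9 CPM in controls and 157 and 476 CPM after ethanol, with Cd3e and Cd79a at 0 in both and Itgam at 0 in controls. The 10 enterocyte markers summed to 57.5 and 90.4 CPM in controls and 263.7 and 263.2 CPM after ethanol, and Apoa1, Fabp2 and Sis passed. Of 8 epithelial markers Epcam, Cdh1 and Cldn7 were higher and Krt18 lower, with sums of 7125.5 and 9684 CPM in controls and 10688 and 11090 CPM after ethanol. Elavl4 of the neuron and glia list and Cyp2e1 of the hepatocyte list also passed. The part of any of these lists in the members' differences was not tested. Of 24 tested genes listed as further conjugating and related enzymes, 5 were higher and 2, Mgst1 and Ephx1, lower. Of the list of 21 regulators of xenobiotic genes, 7 were higher and 1 lower, against 12.3% and 4.77% of all genes. Of 14 genes listed under cofactor supply 2 were higher and 0 lower, close to the share of all genes. The 2 were Ugdh and Slc35d1, at 2.69 ± 0.35 and 1.07 ± 0.33 on the log2 scale (SE; edgeR, adjusted p = 0.00066 and 0.045). Ugdh makes UDP-glucuronic acid and Slc35d1 carries it into the endoplasmic reticulum, where the Ugt enzymes work; both were named after their values were seen. The Slc35d1 call ended without control library 2 or either ethanol library, and both ended with a spread per group.

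**Figure D4:**
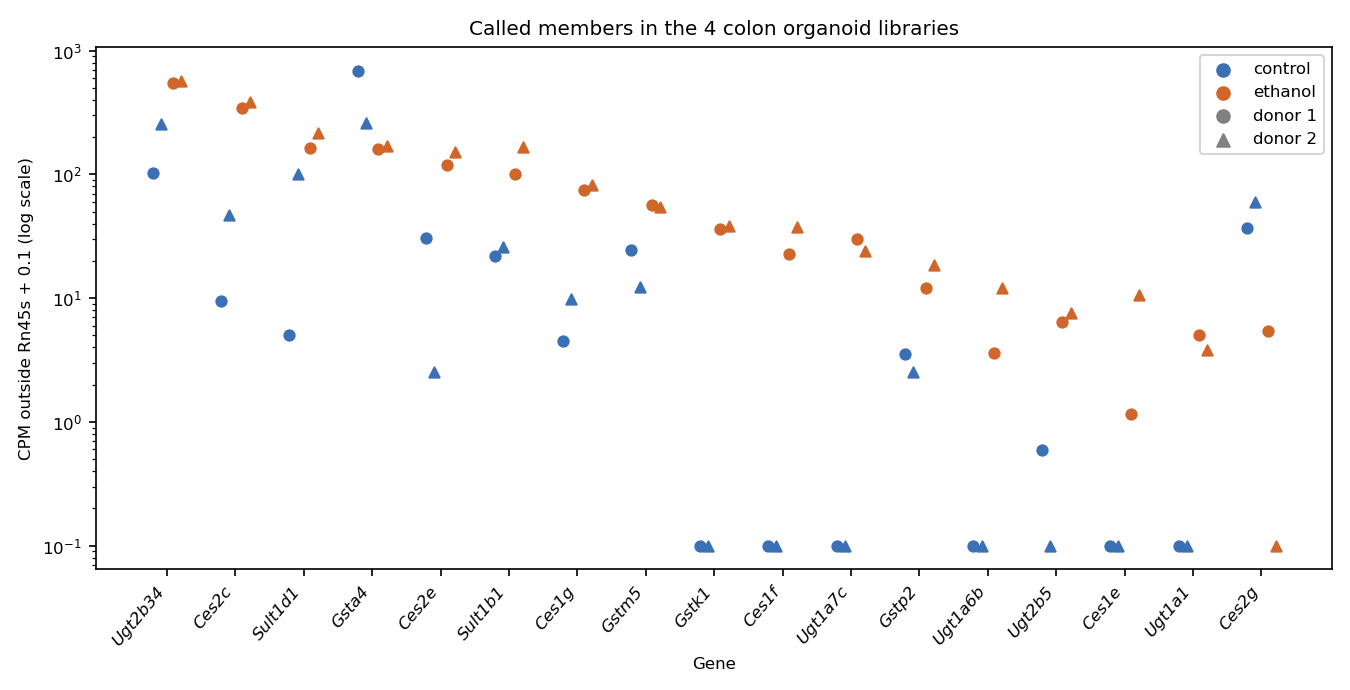
Level in each of the 4 colon organoid libraries (blue control, orange ethanol, circle donor number 1, triangle donor number 2) of the 17 members that passed, as CPM outside Rn45s plus 0.1 on a log y axis, with genes on the x axis in order of their ethanol mean. Points at 0.1 have no count; for all 17 genes the 2 ethanol values lie on 1 side of the 2 control values.

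The ethanol difference of colon organoids exceeded that of jejunum organoids for 10 members and was below it for 1 (edgeR, 11 of 46), against 9.49% of all genes, 7.4% above and 2.09% below. Among the 31 members with more than 3 counts in each of the 4 organoid groups, 15 differences were positive and 16 negative. Their median was -0.11, so as a set these members did not shift to 1 side. Of the called members, Ces1f, Gstk1, Ugt1a1 and Ugt1a7c had no count in control colon organoids. Ces2c had a difference of 4.16 ± 0.56, Sult1b1 of 2.997 ± 0.424 and Ugt2b34 of 1.80 ± 0.35 on the log2 scale (SE; edgeR, adjusted p = 0.0015, 0.0018 and 0.0090), and Ces2g had one of -3.87 ± 0.76 (SE; edgeR, adjusted p = 0.0095). Without control colon organoid library 1 the count was 18 of 49 and without library 2 it was 17 of 49, and with a spread per group it was 0.

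In jejunum organoids 0 of 46 members passed and 0% of all genes did. At an unadjusted p under 0.05 edgeR gave 3 members, Gstm1, Ces1g and Gstm3, and 149 of 13170 genes. DESeq2 called 0 members. The log2 fold changes were positive for 30 of the 46, with a median of 0.17 against 0.00 for all genes. Gstm1 was at 1786.5, 726, 1289.5 and 1028 CPM in controls and at 2280.0, 2193, 2405 and 1526 CPM after ethanol; 1 ethanol library lay inside the control range (log2 fold change 0.79 ± 0.28, SE; edgeR, adjusted p = 1.0). Gstm3 was at 1083, 471, 572 and 529 CPM against 1127, 1322, 1228 and 740.0 CPM, with a log2 fold change of 0.72 ± 0.31, and Ces1g had 1.20 ± 0.47 (SE; edgeR, adjusted p = 1.0 for both).

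In colon tissue 0 of 41 members passed, as did 0.00746% of all genes, and without the 3 Hoxb13-high libraries 0 of 39. An unadjusted p under 0.05 (edgeR) was reached by 345 of 13405 genes. The only member with an unadjusted p under 0.05 (edgeR) was Ces2g, at 15.6, 6.22, 4.66 and 7.11 CPM in controls and 23.2, 53.9, 8.45 and 12.01 CPM after ethanol (log2 fold change 1.49 ± 0.58, SE; edgeR, adjusted p = 1.0), and DESeq2 called 0 members. The highest values, in ethanol libraries 1 and 2 and control library 1, were those of the libraries with Hoxb13. Gstm6 and Ugt2b35 came next, at 0.82 ± 0.43 and 0.58 ± 0.32 on the log2 scale (SE; edgeR, adjusted p = 1.0).

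In jejunum tissue 0 of 41 members passed and 0% of all genes, and DESeq2 called 0 members. At an unadjusted p under 0.05 edgeR gave 5 of the 41 members and 1495 of 13405 genes, a similar share. Gstt2, a theta-class enzyme, was at 26.85, 27.7 and 22.5 CPM in controls and 37.6, 40.1, 44.5 and 51.4 CPM after ethanol, without overlap, and its log2 fold change of 0.84 ± 0.24 had an adjusted p of 0.22 (SE; edgeR). Sult1c2 had no count in the 3 controls and 2.38, 1.33, 1.08 and 1.45 CPM after ethanol, at least 1.86-fold higher (edgeR, adjusted p = 0.25), and Ugt2b35 differed by 1.35 ± 0.46 (SE; edgeR, adjusted p = 0.27). The control libraries of this group held 684906 to 1510057 counts outside Rn45s and the ethanol libraries 2099739 to 7606668, so low members were less detectable in controls. The difference of the ethanol effect between colon and jejunum tissue passed for 0 of 41 members and 0% of all genes (edgeR). An unadjusted p under 0.05 was seen for 2 members and 853 of 13405 genes (edgeR). DESeq2 called 0 members, and without the 3 Hoxb13-high libraries 0 of 39 passed.

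Within colon tissue the 3 libraries with Hoxb13 shared a pattern that crossed the treatments. Of the 41 members tested, 15 were lower in all 3 of these libraries than in each of the other 5 (36.6%, against 6.71% of all genes), and 2 were higher (4.88%, against 14.2%). The 15 were Ces1f, Ces1g, Ces2a, Ces2b, Ces2c, Ces2e, Gsta1, Gsta4, Gstk1, Gstp2, Sult1d1, Ugt1a1, Ugt2b34, Ugt2b36 and Ugt2b5, and the 2 were Ces2g and Ugt2a3. Among the 15, Ces1f, Ces1g, Ces2c, Ces2e, Gstk1, Gstp2, Sult1d1, Ugt1a1, Ugt2b34 and Ugt2b5 were called higher after ethanol in colon organoids. Gsta4 was called lower there, as was Ces2g of the 2. The same overlap over all genes is not given here, so it is not read as particular to the members. Ces2c was at 169.6 CPM in control library 1 and 178 and 127 CPM in ethanol libraries 1 and 2, and at 749 to 1025 CPM in the other 5. Ces1g was at 6.93, 15.9 and 6.54 CPM in the 3 and at 91.0 to 234 CPM in the others, and Gstk1 at 80.0, 85.5 and 82.8 CPM against 190.2 to 229.7 CPM. Gstm1, at 315, 247 and 485 CPM in the 3 and 213 to 368.5 CPM in the others, did not follow this. The colonocyte markers followed the pattern, with summed levels of 3987, 5216 and 4374 CPM in the 3 and 21666 to 35292 CPM in the other 5, and none of them was at 0 in either treatment group. Smooth muscle markers summed to 14614, 20021 and 3863 CPM in the 3 and 3568 to 4540 CPM in the other 5. The part of these cell types in the pattern was not tested. The labels do not say from which part of the colon a library was taken.

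**Figure D5:**
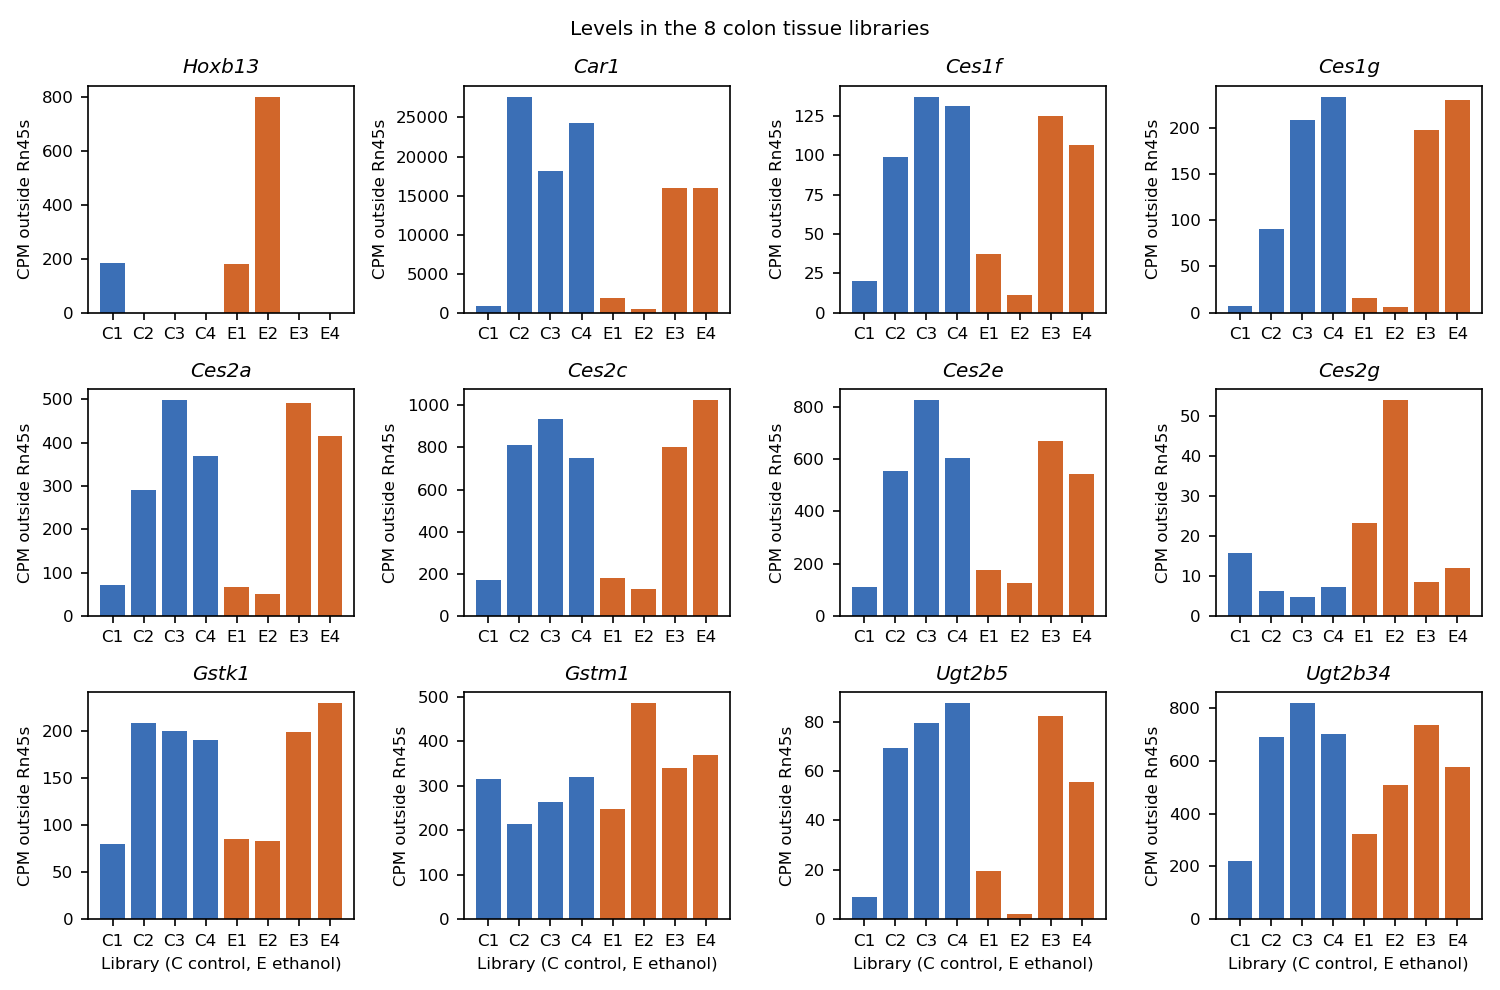
CPM outside Rn45s (y axes, linear, from 0) in the 8 colon tissue libraries (x axis; C1 to C4 control, E1 to E4 ethanol) of Hoxb13, the colonocyte gene Car1 and 10 members. C1, E1 and E2 have Hoxb13 at 182.0 to 800.5 CPM and are the lowest 3 for Ces1f, Ces1g, Ces2a, Ces2c, Ces2e, Gstk1, Ugt2b5 and Ugt2b34, the highest 3 for Ces2g, and mixed for Gstm1.

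Of 14 cofactor genes tested in control tissue 3 were higher and 5 lower in colon (edgeR), where 23.8% of all genes were higher and 18.5% lower; Ugdh was higher by 2.21 ± 0.68 and Papss2, which makes the sulfate donor, by 2.03 ± 0.49, and the brush border peptidase Anpep was lower, by -9.34 ± 0.51 on the log2 scale (SE; edgeR, adjusted p = 0.018, 0.0035 and 1.1e-10). Of 21 regulators 5 were higher and 6 lower; Gata4 had 2 counts in the 4 control colon libraries together, Nr1i3, the constitutive androstane receptor, was lower by -5.70 ± 0.73, and Nr1h4, the bile acid receptor, was higher by 2.25 ± 0.73 (SE; edgeR, adjusted p = 8.3e-06 and 0.023). The Ugdh and Nr1h4 calls ended without jejunum library 1 or 3. In control organoids 8 of 14 cofactor genes and 11 of 21 regulators were lower in colon and 0 and 1 were higher, against 26.8% of all genes lower and 22.6% higher; the 1 was Ahr, the aryl hydrocarbon receptor, named after its value was seen. In the jejunum 7 of the 14 cofactor genes were higher in control organoids than in tissue, among them Gclc and Gclm, the subunits of the enzyme that limits glutathione synthesis, and 5 were lower, against 24.4% and 27.3% of all genes.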

How the data were processed

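RNA from 27 mouse libraries was prepared with a 3' tag kit (Lexogen QuantSeq), per the labels' protocols. The authors deposited whole-number counts per gene. Trimmomatic 0.32, BWA, HTSeq, limma, edgeR and the mm10 build are named in the submitters' processing notes; the sources used here do not give the strand setting. Each column was matched to 1 sample, and the deposited normalized table was not used. The counts of Rn45s were left out before CPM and tests. Genes were filtered by expression in the groups, scaled by TMM and tested with edgeR 4.0.16 (quasi-likelihood, R 4.3.3) on the 12 organoid, 15 tissue or 27 libraries, with Benjamini-Hochberg adjustment over all genes kept and a threshold of 0.05. Of the 56 members, 46, 41 and 50 were tested. The 684906 to 7606668 counts per library set a floor of 3 counts over a group; intervals are exact at 95% and cover counting error only. The members and gene lists were chosen with earlier results of these data known. Genes were named where their mean reached 50 CPM in a group, or as the most changed called members with group ranges apart, or, with no call, by the 3 smallest p. Alternatives were DESeq2 1.42.0 and its size factors, no TMM, no filter, limma-voom 3.58.1 with a spread per group, groups compared alone, donor number as a block, and leaving out each library. The programs were tested on simulated counts. Same-numbered libraries were checked for shared deviations: only for ethanol against control jejunum tissue did all 3 pairs correlate above 0.1 (0.12 to 0.15 across genes), although donor numbers may also mark 1 mouse across segments, which the labels do not state.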

Additional observations from a re-analysis of the deposited data

Results flagged for a closer look

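In groups of 4 libraries a value was singled out when its gap to the nearest other library exceeded the 95% limit of Dixon's test, which chance alone passes in about 1 of 20 groups; 7 of 104 member and group pairs did so. In control jejunum organoids library 1 stood apart for 3 members: Ces2a was at 401 CPM against 723 to 758 CPM in the other libraries, Gstm3 at 1083 CPM against 471 to 572 CPM, and Gstm5 at 72.0 CPM against 46.9 to 49.7 CPM. In ethanol jejunum organoids Ces1e was at 38.9 CPM in library 1 against 86.7 to 96.2 CPM, and Gsta1 at 2333 CPM in library 4 against 4028 to 4238 CPM. In control colon tissue library 1, which has Hoxb13, Gstk1 was at 80.0 CPM against 190.2 to 208 CPM and Sult1b1 at 166 CPM against 384 to 389 CPM.

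Differences between groups under 1 contrast also stood out by a test of the difference itself. In organoids the effect of ethanol was not the same in colon as in jejunum for 11 of 46 members (edgeR), among them Ces2g with -3.87 ± 0.76 on the log2 scale (SE; adjusted p = 0.0095). The share over all genes was 9.49%. The colon minus jejunum effect differed between control organoids and control tissue for 30 of 50 members (edgeR), against 40.6% of all genes.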

How the results depend on the processing

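With a spread estimated for each group (limma-voom) the count of members passing was 0 for ethanol in colon organoids, 4 for the segments of control organoids, 2 for organoids against tissue in the control colon, 6 for the segment difference between organoids and tissue and 0 for the ethanol difference between organoid segments. With the groups compared alone it was 0 for ethanol in colon organoids and 19 for organoids against tissue in the control colon. The cause was not tested. Except where stated, counts of members under the alternatives are given without the share of all genes in the same fit. The same holds for overlaps of called members between comparisons. Neither is read as particular to the members. Over single libraries left out, the counts ran from 12 to 19 for ethanol in colon organoids, 16 to 24 and 20 to 26 for the segments of control and ethanol tissue, 30 to 38 and 22 to 31 for those of control and ethanol organoids, 20 to 31 and 26 to 30 for organoids against tissue in colon and jejunum, 25 to 33 for the segment difference and 9 to 18 for the ethanol difference between organoid segments. They stayed at 0 in the other 4 comparisons. For 71 named member and comparison pairs, 994 of 1061 alternatives kept the outcome, called or not called, 67 lost a call and 0 reversed one. These pairs include members that were not called and were named by smallest p. The called ones were picked as the most changed, mostly with group ranges apart, so several weaker calls given above are left out.

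With donor number as a replicate block the segments differed for 15 members in control organoids and 10 in ethanol organoids, and ethanol in colon organoids for 12. A mouse drank either water or ethanol, so 1 number in a control and an ethanol library marks different mice. In the ethanol comparisons the block therefore does not pair animals. Pairing correlations ran from -0.19 to 0.61. The block moved no other count of calls by over 1.5 times.

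Counting Rn45s in the total changes levels most in jejunum tissue: the control sums there were 154 CPM for Gst, 232 for Ugt, 245 for Sult and 434 for Ces. Control jejunum organoids then had 903 CPM for Ugt, 431 for Sult and 2190.0 for Ces, and Gst was at 1661 CPM in control colon organoids and 1156 CPM in control colon tissue. With TMM scaling Gst was at 1974 CPM in control colon organoids and Ces at 2565 CPM in control jejunum tissue. The depth of control colon organoids and control jejunum tissue limits what can be said of members at a few CPM.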
